A study of Mus musculus with 8 samples.

Results

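Activins and inhibins are secreted protein dimers of the TGF-beta superfamily that were first known as gonadal hormones. An activin is a dimer of beta subunits, whereas an inhibin joins a beta subunit to the alpha subunit, and granulosa cells, which enclose the oocyte in the follicle, are their main source in the ovary. Activin signals through a type II receptor, which recruits a type I receptor that activates SMAD transcription factors, while follistatins trap activin outside the cell and inhibin blocks the type II receptor with the help of betaglycan. The system was followed here through 10 mouse genes, chosen by name and found on the array by their Entrez gene IDs among 24232 genes with such an ID. They comprised the ligand subunit genes Inha, Inhba and Inhbb, the follistatin gene Fst with its relatives Fstl1 and Fstl3, the receptor genes Acvr1b, Acvr2a and Acvr2b, and Tgfbr3, which encodes betaglycan. All 10 passed the filter on dim genes (a median scaled signal of at least 10), which left 15645 genes for testing.

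The cells were primary follicular cells from preantral follicles of female Swiss mice (8 weeks of age, pools of 5 animals for each replicate), kept for 9 days in culture and labelled as mostly granulosa cells. All were transfected with 12 pmol of siRNA together with a red fluorescent reporter plasmid, in medium with charcoal-treated serum and no added androgen. The siRNA was either a non-targeting pool (control siRNA) or a pool against Foxl2, a forkhead transcription factor of granulosa cells (FOXL2 siRNA), and for the 10 h before lysis cells received either vehicle or 100 nM of the estrogen 17-beta-estradiol (E2). The sources differ on whether these 10 h fell within the 24 h of growth after transfection or followed 24 h of siRNA. Each siRNA was thus combined with vehicle and with E2, which gave 4 groups of 2 arrays. These are transient knockdowns in mixed cultures, so that a lower signal from fewer cells of a type and from less RNA per cell cannot be told apart. The design asks how FOXL2 depletion, E2 and the combination of both change transcript levels.

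Values below are log2 scaled signals, that is, spot intensities divided by the 75th percentile of their array and brought to a common level of 322. The precision is limited by the number of arrays, and the share of probes well above background was 51.4 to 55.6%. Across genes, the replicates correlated at 0.989 to 0.992, depending on the group. Of 10 granulosa cell markers, 8 were above background on every array, with Amh and Fshr, the gene of the FSH receptor, above it on 0 of 8. The summed signal of these markers was 33989 to 40625 with control siRNA and 44562 to 50344 with FOXL2 siRNA, but their genes did not share one direction. Of the 8 that passed the filter, limma called Wt1 (1.02) and Gata4 (0.47) higher and Gja1 (-1.80), Hsd17b1 (-1.47) and Esr2 (-0.46) lower over both treatments, and 3 were not called. The sums of the 5 theca markers on the array (19507 to 22512 against 36565 to 38630, of which most was Cyp11a1) and of 5 Sertoli cell markers (2244 to 3232 against 4476 to 6398, with Amh at background, 3 of 4 tested called higher) did not overlap between the siRNAs either. Sums for oocyte markers (113 to 168 against 138 to 182), macrophage markers (474 to 517 against 494 to 640), endothelial markers (1108 to 1826 against 1601 to 1965) and fibroblast markers (5530 to 10360 against 6910 to 14451) overlapped over both treatments, although the macrophage and endothelial sums did not overlap within either treatment. Over both treatments limma called 1 of 3 theca markers tested higher, and none of the oocyte, macrophage, endothelial or fibroblast markers tested. The fibroblast sums ran from 10134 to 14451 in replicate 1 and from 5530 to 7419 in replicate 2. Within each replicate number and treatment, the array labelled FOXL2 siRNA had the higher fibroblast sum. The granulosa, theca and Sertoli cell sums thus differed between the siRNAs over both treatments, and the macrophage and endothelial sums within each treatment. These marker differences stand beside every siRNA difference given below. The part of the markers in those differences was not tested.

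The targeted gene was examined first. On the control siRNA arrays, Foxl2 was at 13.46 and 13.02 (vehicle) and 12.95 and 12.77 (E2), and on the arrays labelled FOXL2 siRNA it was at 13.41 and 13.40 (vehicle) and 13.13 and 12.97 (E2). The siRNA groups overlapped, with a difference of 0.18 over both treatments (SE 0.10, limma adjusted p = 0.334), so the gene's mean signal was not lower as its label would have it. Its 2 probes disagreed, as the plot of genes with several probes shows. Their scaled signals were 13883 to 22474 for the brighter probe and 44.6 to 128 for the dimmer one. The gene's mean signal thus follows the brighter probe and is not a separate readout. The brighter probe differed by 0.18 (SE 0.10, adjusted p = 0.364 in a fit over 31521 probes), and the dimmer one fell by 0.97 (SE 0.19, adjusted p = 0.0200), to 51.1% of the control, with all 4 arrays labelled FOXL2 siRNA below all 4 labelled control siRNA. With the log2 values of both probes averaged, the difference of the gene was -0.39 (adjusted p = 0.102). Every direction below rests on the arrays as labelled.

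**Figure D1:**
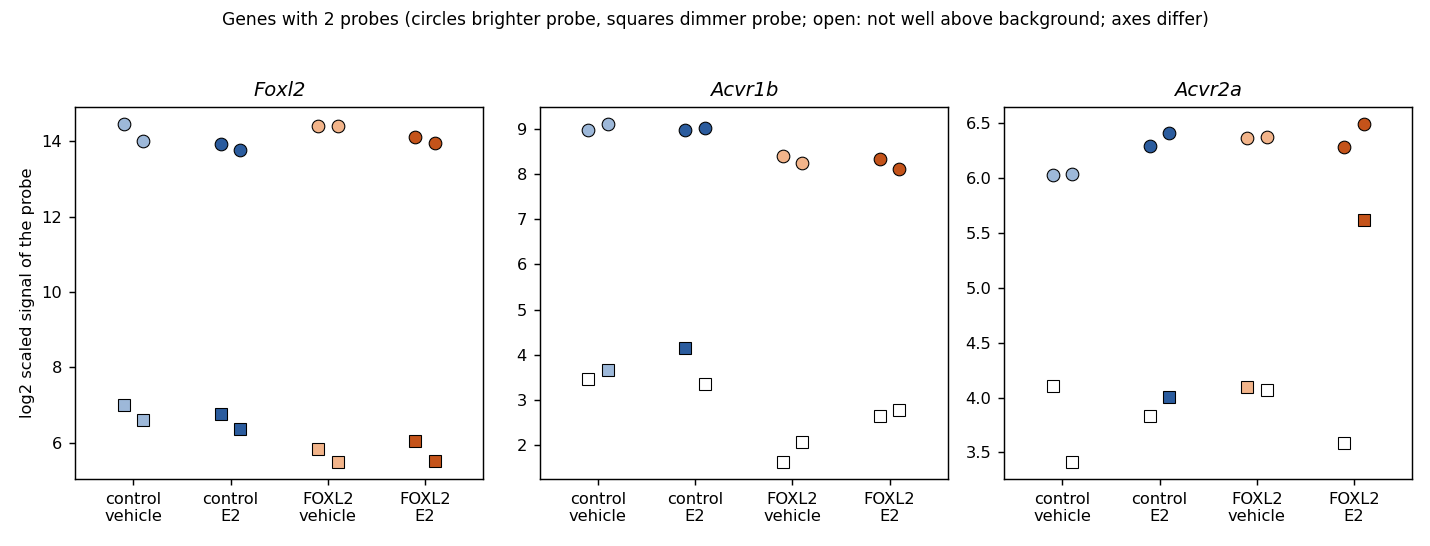
Log2 scaled signal of each probe (y axis, a separate scale per panel) in the 4 groups (x axis) for Foxl2, Acvr1b and Acvr2a, with 1 point per array, circles for the brighter and squares for the dimmer probe, and open symbols where the probe was not well above background. The squares of Foxl2 lie lower on the 4 arrays labelled FOXL2 siRNA while its circles overlap, and the circles of Acvr1b lie lower on the same 4 arrays.

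Over both treatments, 4 of the 10 genes differed between the arrays labelled FOXL2 siRNA and those labelled control siRNA. Follistatin (Fst) fell to 24.7% of the control and the activin type I receptor gene Acvr1b to 58.9%, while the beta-B subunit gene Inhbb rose 1.74-fold and Fstl1 rose 1.45-fold. The test was limma with Benjamini-Hochberg adjustment over all 15645 genes at a threshold of 0.05, and the same test called 12.6% of all genes. The same 4 genes were those whose 4 arrays per siRNA did not overlap, which held for 20.9% of all genes. The 10 genes were chosen with earlier results of these data known, so these shares are not a test of the set. The median difference of the 10 genes was 0.01 and that of all genes was -0.0026, so the set had no common direction, with 2 genes called higher, 2 called lower and 6 not called.

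**Figure D2:**
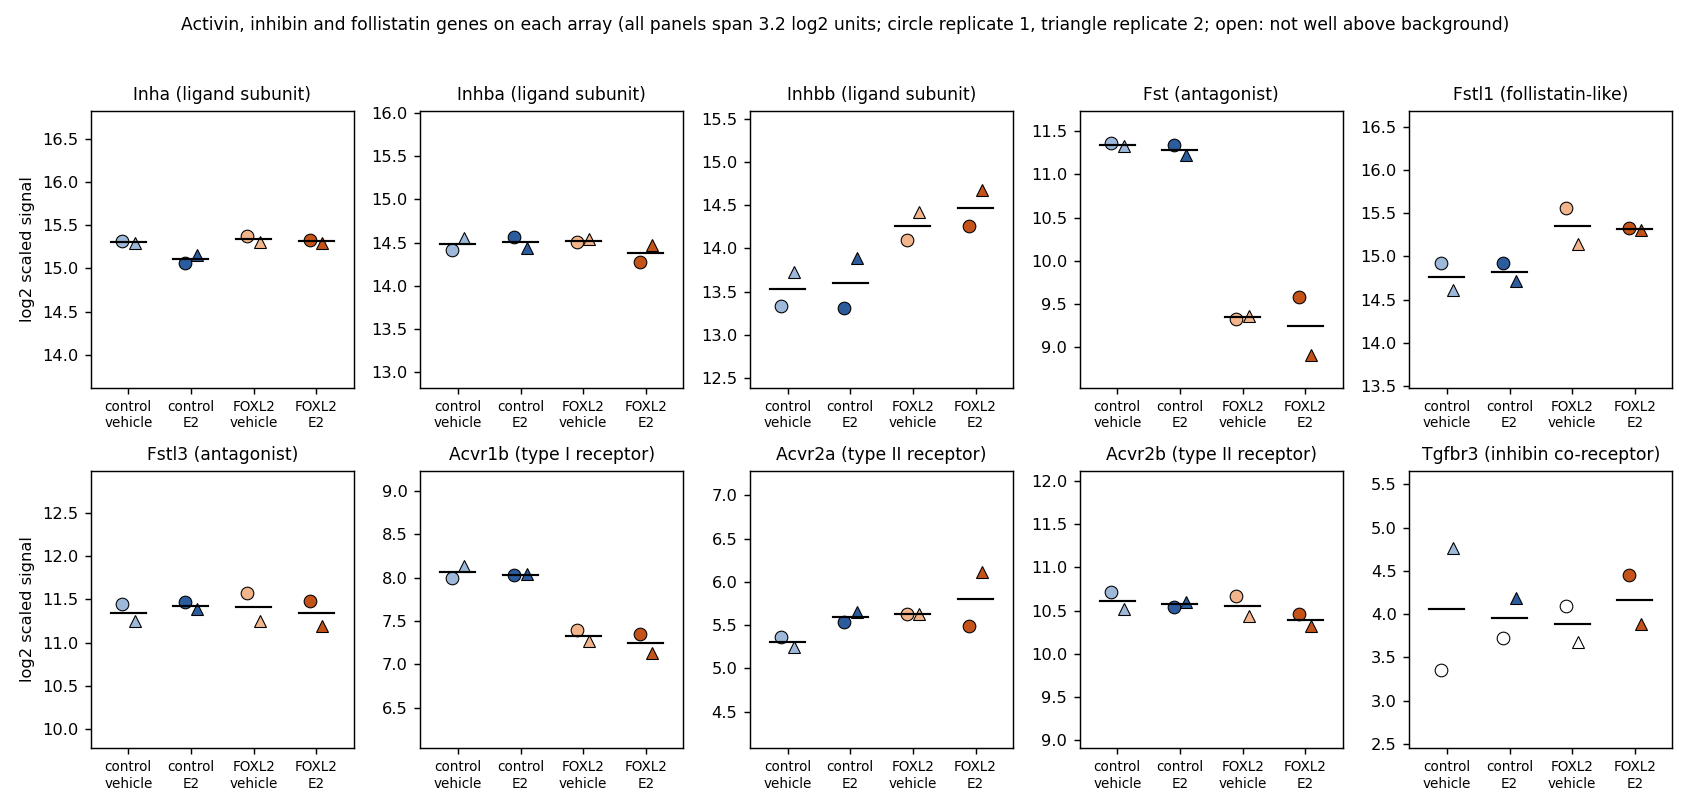
Log2 scaled signal (y axis, 3.2 log2 units in every panel) of the 10 genes on each of the 8 arrays, by group (x axis), with circles for replicate 1, triangles for replicate 2, a line at the group mean and open symbols where the gene was not well above background. Fst and Acvr1b lie lower, and Inhbb and Fstl1 higher, on all 4 arrays labelled FOXL2 siRNA, whereas Tgfbr3 was above background on 4 of 8 arrays.

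Among the ligand subunits, Inhbb encodes the beta-B subunit, which forms activin B and, with the alpha subunit, inhibin B. On the control siRNA arrays its signal was 13.33 and 13.72 (vehicle) and 13.31 and 13.89 (E2). With FOXL2 siRNA it was 14.10 and 14.42 (vehicle) and 14.26 and 14.67 (E2). The lowest array labelled FOXL2 siRNA thus lay 0.21 above the highest control array. The rise over both treatments was 0.80 (SE 0.16, 95% interval 0.42 to 1.18, adjusted p = 0.0185). Taken within each treatment, neither difference was called, at 0.73 for the vehicle arrays (adjusted p = 0.124) and 0.87 for the E2 arrays (adjusted p = 0.0924). The call over both treatments was lost when replicate 1 of the E2-treated control group (0.65, adjusted p = 0.0543), replicate 2 of the vehicle-treated FOXL2 siRNA group (0.72, adjusted p = 0.0692) or replicate 2 of the E2-treated FOXL2 siRNA group (0.69, adjusted p = 0.0605) was left out, and in a fit whose spread does not follow intensity (adjusted p = 0.0511).

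The other ligand subunits were not called. Inha, the alpha subunit that makes a dimer an inhibin, lay between 15.07 and 15.38 on all arrays and differed by 0.12 over both treatments (SE 0.06, interval -0.01 to 0.25, adjusted p = 0.231). With E2 alone, both arrays labelled FOXL2 siRNA (15.33 and 15.29) were above both control arrays (15.07 and 15.16), a difference of 0.20 with an adjusted p of 0.255, and the arrays of 48% of all genes did not overlap there. Inhba, the beta-A subunit of activin A and inhibin A, lay between 14.28 and 14.57 and differed by -0.04 (SE 0.07, interval -0.21 to 0.12, adjusted p = 0.746). The interval of Inhbb, 0.42 to 1.18, did not reach that of Inha or Inhba. No test of the difference between genes was made.

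Among the antagonists, Fst encodes follistatin, which binds activin almost irreversibly and keeps it from its receptors. The control siRNA arrays were at 11.36 and 11.33 (vehicle) and 11.34 and 11.22 (E2), and the arrays labelled FOXL2 siRNA at 9.33 and 9.37 (vehicle) and 9.58 and 8.91 (E2). The 4 control arrays spanned 0.13 and the 4 others 0.67, and a gap of 1.64 separated them. Fst fell by 2.02 over both treatments (SE 0.13, interval -2.33 to -1.70, adjusted p = 0.000226), by 2.00 in vehicle-treated cells (adjusted p = 0.00207) and by 2.04 in E2-treated cells (adjusted p = 0.00242). Within a treatment the share of all genes called was 6.53% with vehicle and 4.38% with E2. In size, the change over both treatments exceeded that of 99.6% of all genes tested. Fst was called in all 3 of these comparisons in each of the 8 fits that left out 1 array.

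Fstl1 encodes a secreted glycoprotein with a follistatin domain whose binding to activin is weak. Its signal on the control siRNA arrays was 14.93 and 14.61 (vehicle) and 14.92 and 14.72 (E2), and with FOXL2 siRNA it was 15.56 and 15.15 (vehicle) and 15.33 and 15.30 (E2). The lowest of the latter arrays lay 0.22 above the highest control array. It moved opposite to Fst, with a rise of 0.54 over both treatments (SE 0.11, interval 0.28 to 0.80, adjusted p = 0.0198). The differences within a treatment, 0.59 for vehicle (adjusted p = 0.0788) and 0.49 for E2 (adjusted p = 0.160), were not called. The call of Fstl1 was lost when replicate 2 of the vehicle-treated control group (0.46, adjusted p = 0.0547), replicate 2 of the E2-treated control group (0.49, adjusted p = 0.0768) or either replicate of the E2-treated FOXL2 siRNA group (0.53 and 0.55, adjusted p = 0.0527 and 0.0600) was left out, after normexp background correction (0.41, adjusted p = 0.0824) and without the intensity trend (adjusted p = 0.0541). Fstl3, which encodes a follistatin-like activin antagonist, lay between 11.19 and 11.58 in all groups and differed by -0.01 over both treatments (SE 0.10, interval -0.25 to 0.23, adjusted p = 0.964).

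Among the receptors, Acvr1b encodes ALK4, the type I receptor that passes the activin signal to SMAD2 and SMAD3. It was measured at 8.00 and 8.14 (vehicle) and 8.03 and 8.04 (E2) on the control siRNA arrays, against 7.40 and 7.26 (vehicle) and 7.35 and 7.13 (E2) on those labelled FOXL2 siRNA. The control arrays lay within 0.14 of each other, and all 4 arrays labelled FOXL2 siRNA were at least 0.60 lower. Acvr1b fell by 0.76 over both treatments (SE 0.09, interval -0.98 to -0.54, adjusted p = 0.00227), by 0.74 in vehicle-treated cells (adjusted p = 0.0190) and by 0.79 in E2-treated cells (adjusted p = 0.0192). Its brighter probe, above background on 8 arrays, fell by 0.75 over both treatments (adjusted p = 0.00293), and its dimmer probe was above background on 2 of 8 arrays, both of them with control siRNA.

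Over both treatments the call of Acvr1b held in each of the 8 fits that left out 1 array. Among vehicle-treated arrays it was lost when replicate 2 of the control (-0.67, adjusted p = 0.103) or replicate 1 or 2 of FOXL2 siRNA (-0.80 and -0.67, adjusted p = 0.0635 and 0.122) was left out. Among E2-treated arrays it was lost when replicate 1 or 2 of the control (-0.80 and -0.78, adjusted p = 0.122 and 0.124) or replicate 2 of FOXL2 siRNA (-0.68, adjusted p = 0.131) was left out, and with the log2 values of its probes averaged (adjusted p = 0.0580).

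The type II receptor genes and the inhibin co-receptor were not called. Acvr2a, which encodes a type II receptor for activin, lay between 5.25 and 6.12 and differed by 0.27 over both treatments (SE 0.17, interval -0.13 to 0.67, adjusted p = 0.381). Its highest value, 6.12 on replicate 2 of the E2-treated FOXL2 siRNA group, came with a dimmer probe that was above background on 3 of 8 arrays. With vehicle alone, the Acvr2a group means were 5.63 with FOXL2 siRNA and 5.30 with control siRNA, without a call. Acvr2b, the other type II receptor gene, lay between 10.32 and 10.71 and differed by -0.12 (SE 0.08, interval -0.31 to 0.07, adjusted p = 0.396). With E2 alone, both Acvr2b arrays labelled FOXL2 siRNA (10.47 and 10.32) were below both control arrays (10.55 and 10.60), without a call. The arrays of 48% of all genes did not overlap there. Tgfbr3 lay between 3.35 and 4.76 and was above background on 1 of 2 arrays in each control siRNA group, and with FOXL2 siRNA on 0 of the vehicle arrays and 2 of the E2 arrays. Its difference of 0.02 had a wide interval, from -0.80 to 0.85 (adjusted p = 0.979). With vehicle, its control arrays were at 3.35 and 4.76 and its FOXL2 siRNA arrays, both at background, at 4.09 and 3.68, so that neither a fold nor a direction is given.

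**Figure D3:**
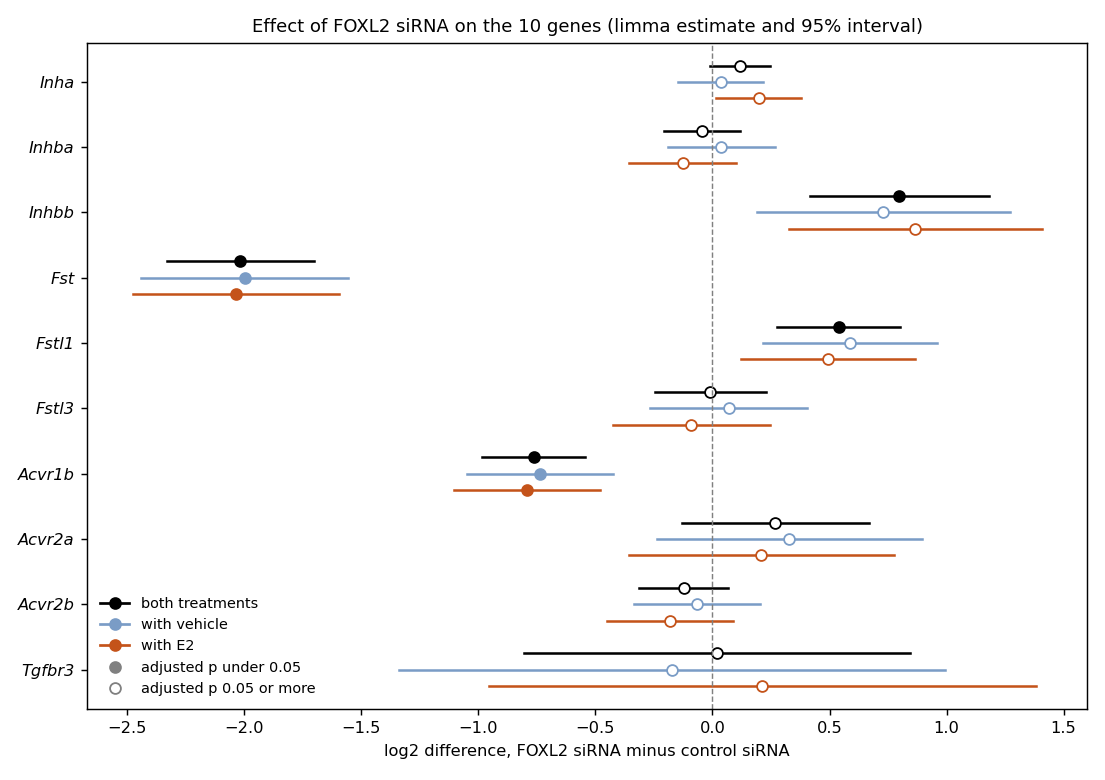
Log2 difference between the arrays labelled FOXL2 siRNA and control siRNA (x axis) for the 10 genes (y axis), over both treatments and within each, with points for the limma estimate, bars for its 95% interval and filled points for an adjusted p under 0.05. Fst at -2.02 stands far to the left, Acvr1b at -0.76 follows, and Inhbb at 0.80 and Fstl1 at 0.54 lie to the right with calls over both treatments only.

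Promoter sequence is shown for the called genes that had an entry in the RefSeq promoter table (build GRCm38.p6), since Inhbb and Fstl1 rose and Acvr1b fell on the same arrays. Of the 10 genes, 8 matched an entry. Fst and Tgfbr3 did not, so the promoter of Fst, the member with the largest change, was not searched. Each sequence below is the 250 bases before the annotated start, read 5' to 3' in the direction of the gene. The forkhead form GTAAACA and the related forkhead forms spelled ATAAACA, then also GTAAATA and, as the last form, ATAAATA, the SMAD box CAGAC and the estrogen response element in its palindromic consensus form were searched on both strands and would stand in capitals.
Inhbb (chr1:119422249-119422498, minus strand): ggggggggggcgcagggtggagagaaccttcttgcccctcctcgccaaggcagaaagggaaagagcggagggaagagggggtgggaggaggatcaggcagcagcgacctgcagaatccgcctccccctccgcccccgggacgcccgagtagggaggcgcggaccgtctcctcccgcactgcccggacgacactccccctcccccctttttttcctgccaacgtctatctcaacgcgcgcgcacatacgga
Fstl1 (chr16:37776805-37777054, plus strand): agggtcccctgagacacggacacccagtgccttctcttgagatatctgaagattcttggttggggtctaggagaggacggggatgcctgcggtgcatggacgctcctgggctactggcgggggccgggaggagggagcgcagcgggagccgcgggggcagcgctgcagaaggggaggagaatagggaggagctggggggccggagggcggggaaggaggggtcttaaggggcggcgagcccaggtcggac
Acvr1b (chr15:101173822-101174071, plus strand): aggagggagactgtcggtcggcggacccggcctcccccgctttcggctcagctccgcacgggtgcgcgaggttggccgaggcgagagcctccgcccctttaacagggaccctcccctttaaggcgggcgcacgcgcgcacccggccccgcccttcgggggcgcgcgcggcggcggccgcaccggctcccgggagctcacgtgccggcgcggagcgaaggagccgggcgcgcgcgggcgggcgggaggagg
None of the motifs occurred in these 3 windows. Among 32851 promoters of the same length, 13.6% held a forkhead form, 42.2% a SMAD box and 0.0639% the estrogen response element. Of the other members with an entry, Inha, Acvr2a and Acvr2b held 1 SMAD box each, Fstl3 held 2 and Inhba held 0, and none of them held a forkhead form or the estrogen response element. The 3 sequences printed were rich in G and C, at 68.0% for Inhbb, 68.0% for Fstl1 and 78.8% for Acvr1b, against a median of 52.4% over all promoters.

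The response to E2 was then examined with each siRNA. None of the 10 genes changed with E2, either with control siRNA or with FOXL2 siRNA, at a limma adjusted p under 0.05, where 0.0192% and 0.0128% of all genes were called (3 and 2 genes). At an unadjusted p under 0.05, which 4.58% and 3.06% of all genes met, the count was 1 of 10 with control siRNA and 0 of 10 with FOXL2 siRNA. The 1 gene was Inha. Its signal was 15.32 and 15.30 with vehicle and 15.07 and 15.16 with E2 on the arrays with control siRNA, so that both E2 arrays were lower, by 0.19 on average (SE 0.08, unadjusted p = 0.0395, adjusted p = 1.00). With FOXL2 siRNA, Inha was 15.38 and 15.31 with vehicle and 15.33 and 15.29 with E2, a difference of -0.03 (interval -0.21 to 0.15) between overlapping arrays.

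Marker sums also moved with E2. With control siRNA, E2 and vehicle arrays did not overlap for the granulosa (33989 to 34450 against 37301 to 40625), theca (19507 to 19876 against 22429 to 22512), Sertoli cell (2655 to 3232 against 2244 to 2340) and macrophage markers (474 to 482 against 496 to 517). With FOXL2 siRNA the granulosa (44562 to 46692 against 48269 to 50344), theca (36565 to 38102 against 38135 to 38630), Sertoli cell (4476 to 5629 against 5740 to 6398) and endothelial sums (1601 to 1699 against 1904 to 1965) did not overlap. For single genes, such arrays did not overlap for 27.1% of all genes with control siRNA and 27.6% with FOXL2 siRNA. Limma called none of the marker genes tested with E2, with either siRNA. The part of these markers in the E2 differences was not tested.

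The E2 arrays and the vehicle arrays overlapped for most members. With control siRNA, Acvr2a was 5.36 and 5.25 with vehicle and 5.53 and 5.65 with E2, a difference of 0.29 (interval -0.28 to 0.85, unadjusted p = 0.273) without overlap, as was Inha, where arrays did not overlap for 27.1% of all genes. With FOXL2 siRNA, Inhba alone did not overlap, at 14.51 and 14.54 with vehicle and 14.28 and 14.48 with E2, a difference of -0.14 (interval -0.37 to 0.08, unadjusted p = 0.182), and 27.6% of all genes did not. Fst differed with E2 by -0.06 (interval -0.50 to 0.38) with control siRNA and by -0.10 (interval -0.54 to 0.34) with FOXL2 siRNA. For Inhbb these values were 0.07 (interval -0.47 to 0.61) and 0.21 (interval -0.33 to 0.75), and for Acvr1b -0.03 (interval -0.34 to 0.28) and -0.09 (interval -0.40 to 0.22). E2 effects on Fst, Inhbb or Acvr1b within these intervals are compatible with the data. The intervals are not limits of detection, and larger effects could also go uncalled with 2 arrays per group.

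**Figure D4:**
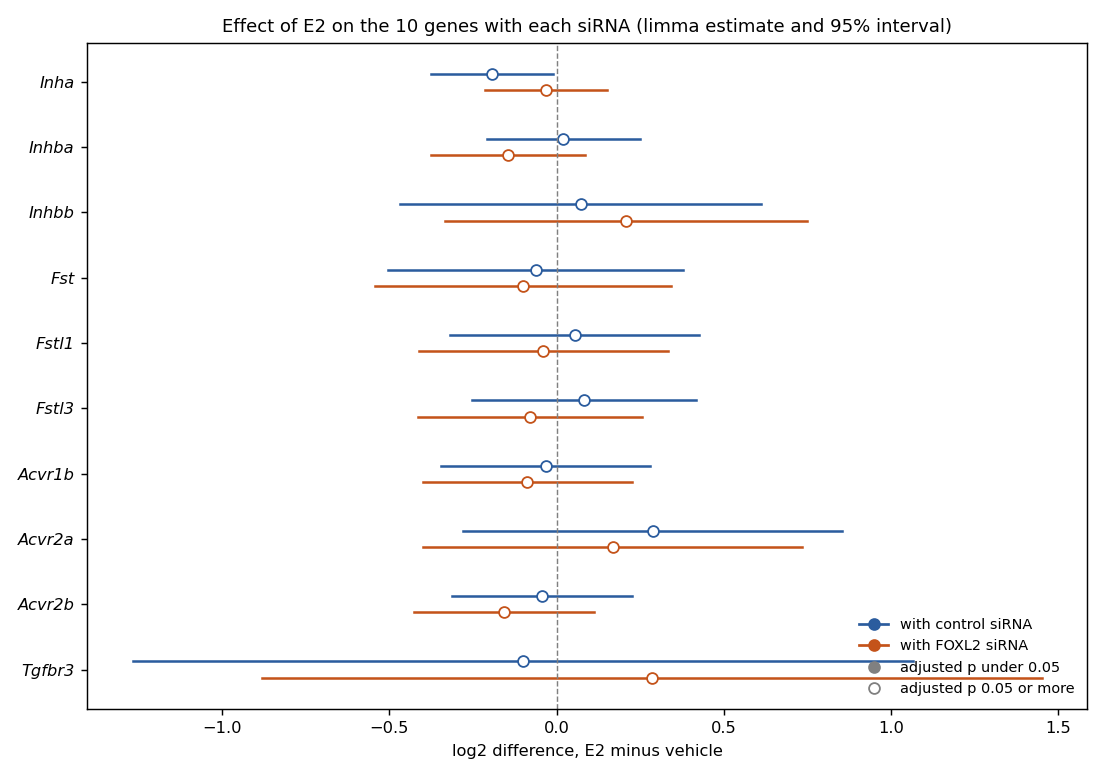
Log2 difference between E2 and vehicle (x axis) for the 10 genes (y axis) with control siRNA and with FOXL2 siRNA, with points for the limma estimate and bars for its 95% interval, all points open because no adjusted p was under 0.05. Acvr2a with control siRNA lies at 0.29, and the point of Tgfbr3 with FOXL2 siRNA is set against vehicle arrays that were both at background.

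Whether the siRNA changed the E2 response was tested as the difference between both E2 effects. It was called for 0 of the 10 genes, against 0.243% of all genes (38 genes, and 4 to 10 genes when any 1 array was left out). At an unadjusted p under 0.05, which 4.9% of all genes met, the count was also 0 of 10. The difference was 0.16 for Inha (interval -0.09 to 0.42), -0.16 for Inhba (interval -0.49 to 0.16), 0.14 for Inhbb (interval -0.63 to 0.90) and -0.04 for Fst (interval -0.66 to 0.59). For the receptors it was -0.05 for Acvr1b (interval -0.49 to 0.39), -0.12 for Acvr2a (interval -0.92 to 0.68), -0.11 for Acvr2b (interval -0.49 to 0.27) and 0.39 for Tgfbr3 (interval -1.26 to 2.04), which was at background on both arrays of 1 of the 4 groups. The remaining values were -0.10 for Fstl1 and -0.16 for Fstl3. For Fst, the largest change among the members, differences in the siRNA effect between vehicle and E2 of -0.66 to 0.59 are compatible with the data. Differences outside that interval could also go uncalled.

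Other genes of the pathway were taken from 6 lists with 42 genes, of which 35 passed the filter. The 7 that did not pass were Inhbc, Mstn, Bambi, Fstl4, Fstl5, Lefty1 and Fshr, the last a gene known to respond to activin in granulosa cells. Over both treatments, 2 of the 35 rose and 7 fell on the arrays labelled FOXL2 siRNA, against 12.6% of all genes called in either direction. The lists were chosen with earlier results of these data known, so this comparison is not a test of the pathway. Among 5 other ligand genes, Gdf1 fell by 0.71 (SE 0.09, adjusted p = 0.00266), and Inhbe, Gdf11, Nodal and Gdf3 were not called. The Gdf1 transcript also carries the coding sequence of the ceramide synthase gene Cers1, so that its signal is not that of Gdf1 alone. None of the 3 other binding proteins tested (Wfikkn1, Wfikkn2 and Lefty2) was called.

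Of 9 other receptors and co-receptors, the type II receptor gene Bmpr2, best known for BMP ligands, fell by 0.62 (SE 0.11, adjusted p = 0.0102), from 10.45, 10.45, 10.18 and 10.13 on the control arrays to 9.58, 9.68, 9.99 and 9.48. Acvrl1, which encodes the type I receptor ALK1, rose by 0.59 (SE 0.14, adjusted p = 0.0288). Its control arrays lay between 6.01 and 6.59 and the others between 6.83 and 7.01. Tgfbr1, the TGF-beta type I receptor gene, differed by 0.25 (adjusted p = 0.0713) with no overlap between the siRNAs, and Acvr1c, an alternative type I receptor gene for activin B, by 0.59 (SE 0.29, adjusted p = 0.240).

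The proprotein convertases cleave the precursors of activin and related ligands, and 2 of the 4 fell. Pcsk5 fell by 1.44 (SE 0.18, adjusted p = 0.00252), from 11.05, 11.36, 11.06 and 11.26 with control siRNA to 9.42, 10.09, 9.44 and 10.04. Pcsk7 fell by 0.37 (adjusted p = 0.0367), and Furin (-0.02, adjusted p = 0.940) and Pcsk6 (0.83, SE 0.44, adjusted p = 0.289) were not called. Of 9 intracellular transducers, the inhibitory SMAD gene Smad6 fell by 0.39 (SE 0.09, adjusted p = 0.0273). The receptor-regulated Smad2 (0.20, adjusted p = 0.234) and Smad3 (-0.19, adjusted p = 0.403), the common mediator Smad4 (0.11, adjusted p = 0.324) and the inhibitory Smad7 (0.36, adjusted p = 0.144) were not called.

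Of 5 genes known to respond to activin, TGF-beta or SMADs, 1 rose and 2 fell. Ccnd2, a cyclin of granulosa cell proliferation, rose by 0.88 (SE 0.13, adjusted p = 0.00438), from between 12.99 and 13.24 to between 13.72 and 14.26. The SMAD corepressor gene Tgif1 fell by 0.41 (SE 0.07, adjusted p = 0.00749) and Pmepa1, a TGF-beta-induced inhibitor of SMAD signalling, fell by 0.60 (SE 0.14, adjusted p = 0.0297). The SMAD corepressor genes Ski (0.19) and Skil (-0.06) were not called. Within a treatment, Gdf1, Bmpr2, Pcsk5 and Ccnd2 were called with vehicle, and Pcsk5 and Tgif1 with E2. In the fits that left out 1 array, the calls with vehicle held in 8 of 8 for Gdf1, 6 for Pcsk5, 5 for Ccnd2 and 4 for Bmpr2, and those with E2 in 5 for Pcsk5 and 0 for Tgif1. With E2 against vehicle, limma called 0 of the 35 genes with either siRNA, and an unadjusted p under 0.05 was met by 1 with control siRNA and 0 with FOXL2 siRNA. The calls over both treatments of Gdf1, Bmpr2, Pcsk5, Tgif1 and Ccnd2 held in each of the 8 fits that left out 1 array, whereas Smad6 was called in 4, Acvrl1 in 2, Pmepa1 in 2 and Pcsk7 in 1, with adjusted p of up to 0.0947, 0.100, 0.104 and 0.119.

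**Figure D5:**
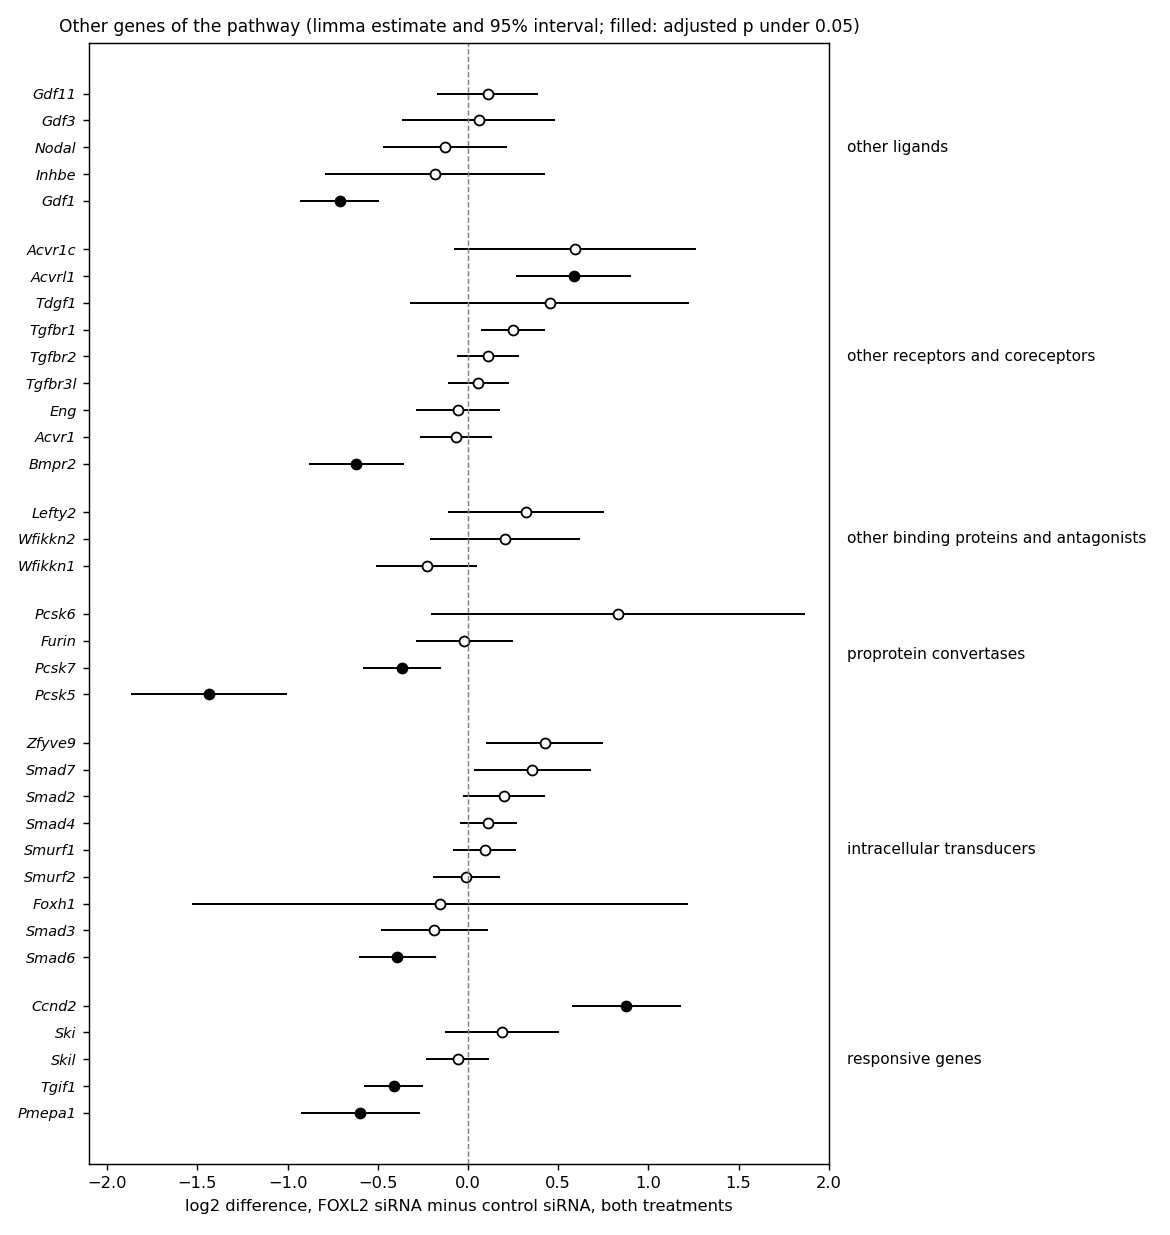
Log2 difference between the arrays labelled FOXL2 siRNA and control siRNA over both treatments (x axis) for the 35 other pathway genes tested (y axis, grouped by list), with points for the limma estimate, bars for the 95% interval and filled points for an adjusted p under 0.05. Pcsk5 at -1.44 and Ccnd2 at 0.88 are the called genes farthest from 0.

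The pattern of each called gene over the 8 arrays was also compared with that of 12610 genes above background on all of them. The 4 control arrays and the 4 arrays labelled FOXL2 siRNA did not overlap for these genes. A high Pearson correlation records that separation at least in part and is given as a description. For Inhbb the gap between the siRNAs was 0.21, against spans of 0.57 and 0.58 within each siRNA. For Fstl1 it was 0.22, against 0.32 and 0.42, so differences within an siRNA also enter the correlations of these 2 genes. The genes most like Fst were Ank2, Cacna2d1 and Ninl, at 0.996, 0.994 and 0.994, with differences over both treatments of -0.80, -0.51 and -0.73. Among those most like Acvr1b were Rgs2 and Tmsb15l, each at 0.994. For Inhbb they included Gstm4 and Rhoa, at 0.988 and 0.986, and for Fstl1 they were Gng13, Tbc1d8b and Nap1l2, at 0.994, 0.993 and 0.991. Among the members themselves, Fst correlated at 0.989 with Acvr1b, at -0.905 with Inhbb and at -0.864 with Fstl1 over the same 8 arrays.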

How the data were processed

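RNA of 8 samples was measured, 2 per group, from 50 ng per sample that was amplified and labelled with Cy3, on one-colour Agilent arrays of mm9 design with 1 array for each sample. Samples were grouped by their labels. The deposited scanner files hold spot intensity values from Agilent Feature Extraction 11.5.1.1, background-subtracted and not scaled between arrays. The authors' deposited table holds log2 values scaled to the 75th percentile. At 98.7 to 99.1% of genes, depending on the array, it differed from the values used here by one constant within 0.001.

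Here, 3671 control spots and 42 non-uniform probes were left out, leaving 55639 probes. Each array's processed intensity was divided by its 75th percentile (275 to 367) and multiplied by the mean of the 8 percentiles. Probes sharing an Entrez gene ID were averaged on the linear scale, genes with a median of at least 10 were kept, and values were put on a log2 scale. A table of RefSeq genes gave symbols for 22349 of 24232 gene IDs. No probe was saturated, and intensities carry no read depth.

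The 4 group means were fitted with limma 3.58.1 in R 4.3.3, with an intensity trend and 4 residual degrees of freedom. Tests of the 6 comparisons were two-sided and adjusted by Benjamini-Hochberg over 15645 genes, at a threshold of 0.05. The code was tested on simulated data. Figures were drawn with matplotlib 3.10.9. The text names the 10 members in every comparison, Foxl2, the pathway genes called over both treatments (at most 4 per list) or in another comparison, other list genes by role, and the 3 genes most like each called member, except 3 genes that are not reported here (1 of them left out of its pathway list). Members and lists were chosen with earlier results of these data known. Replicates are labelled as biological and came from mouse pools, but whether every group had its own culture is not given in the sources used here. Alternatives were normexp background correction, quantile and median scaling, no filter or a filter at 100, no intensity trend, other averaging of probes, single probes, only the groups compared, a replicate block, the authors' table, the study's fold-and-SD rule, and leaving out each array.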

Additional observations from a re-analysis of the deposited data

How the results depend on the processing

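Counts of the 10 genes called were 4 over both treatments, 2 with vehicle, 2 with E2 and 0 in the E2 comparisons. Without the intensity trend the count over both treatments was 2. With only the groups compared it was 1 with vehicle and 1 with E2, as it was under the study's fold-and-SD rule, and averaging log2 values of probes gave 1 with E2. Leaving out 1 array gave 2 to 4, 1 to 2 and 1 to 2. In the E2 comparisons the count was 0 under every alternative run. No called value of a member changed sign under any alternative.

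The replicate numbers are shared by the groups, and replicate deviations of 2 groups correlated at 0.329 to 0.445 across genes. With 2 numbers this is a hint from the data, not the design. With the replicate number as a replicate block, 4 genes were called with vehicle and 4 with E2, where Inhbb (adjusted p = 7.53e-05 and 2.79e-05) and Fstl1 (adjusted p = 0.00111 and 0.00445) were added. The replicate 2 array was the higher in 4 of 4 groups for Inhbb and in 0 of 4 for Fstl1. The block left 4 called over both treatments and changed no other call of a member. Of the 9 pathway genes called over both treatments, it added Smad6, Pmepa1 and Tgif1 with vehicle (adjusted p = 0.0120 to 0.0178), and Gdf1, Acvrl1, Bmpr2, Pcsk7, Smad6, Pmepa1 and Ccnd2 with E2 (adjusted p = 0.000209 to 0.0493). Over both treatments, no filter lost Acvrl1, Pcsk7 and Pmepa1 (adjusted p = 0.0560 to 0.0697). No intensity trend lost Pcsk7, Smad6 and Pmepa1 (adjusted p = 0.0595 to 0.0623). Within a treatment, that setting also lost Bmpr2, Pcsk5 and Ccnd2 with vehicle, and Pcsk5 and Tgif1 with E2. With E2, no filter lost Pcsk5 and Tgif1, and only the groups compared lost Tgif1. With vehicle, averaged log2 values lost Gdf1 and quantile normalization added Tgif1. A stricter filter added Ccnd2 with E2.

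Over all genes, 1967 were called over both treatments, 1022 with vehicle and 686 with E2. With the replicate block these were 4327, 2928 and 2330, with the study's rule 460 with vehicle and 368 with E2, and with 1 array left out as few as 1181 (replicate 2 of the E2-treated FOXL2 siRNA group left out), 309 (replicate 2 of the vehicle-treated FOXL2 siRNA group) and 130 (replicate 1 of the E2-treated control group). In the E2 comparisons and their difference, 3, 2 and 38 genes were called, with the replicate block 182, 96 and 332, and with the study's rule 71 and 34 in the former. They fell to 0 to 5, 0 to 4 and 4 to 10 with 1 array left out, and the 38 to 9 with no filter, 15 without the intensity trend and 25 with the filter at 100.

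Uncalled values close to 0 changed sign as follows, and the cause was not tested. With FOXL2 siRNA against control siRNA and vehicle, Inha became -0.039 and Inhba -0.031 with normexp, and -0.031 and -0.024 with quantile normalization. With E2 against vehicle and control siRNA, Inhba became -0.0048 with normexp, Tgfbr3 0.069 with quantile normalization and Acvr1b 0.079 with log2 values of probes averaged. With E2 against vehicle and FOXL2 siRNA, Acvr2a became -0.023 and Tgfbr3 -0.079 with normexp, Inha 0.053 and Fstl1 0.047 with quantile normalization, and Acvr1b 0.39 with log2 values averaged. For the difference of the E2 effects, log2 values averaged gave 0.31 for Acvr1b and 0.028 for Acvr2a, and the dimmer Acvr2a probe alone gave 0.36. Foxl2, with log2 values averaged, was -0.39 over both treatments, -0.49 with vehicle and -0.30 with E2.

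The fits that each left out 1 array moved these uncalled differences through 0. Between the siRNAs, over both treatments, the ranges were -0.093 to 0.0042 for Inhba, -0.091 to 0.071 for Fstl3 and -0.33 to 0.37 for Tgfbr3. With vehicle they were -0.0021 to 0.072 for Inha, -0.031 to 0.11 for Inhba, -0.092 to 0.23 for Fstl3, -0.18 to 0.048 for Acvr2b, -0.88 to 0.53 for Tgfbr3 and -0.058 to 0.39 for Foxl2, and with E2 -0.24 to 0.057 for Fstl3, -0.11 to 0.52 for Acvr2a and -0.070 to 0.50 for Tgfbr3. For E2 against vehicle they were -0.049 to 0.089 for Inhba, -0.22 to 0.36 for Inhbb, -0.11 to 0.22 for Fstl1, -0.016 to 0.18 for Fstl3, -0.10 to 0.035 for Acvr1b, -0.14 to 0.049 for Acvr2b and -0.81 to 0.60 for Tgfbr3 with control siRNA. With FOXL2 siRNA instead, they were -0.068 to 0.0062 for Inha, -0.00079 to 0.42 for Inhbb, -0.43 to 0.23 for Fst, -0.25 to 0.17 for Fstl1, -0.24 to 0.083 for Fstl3, -0.20 to 0.023 for Acvr1b and -0.15 to 0.48 for Acvr2a. The difference of both E2 effects ranged over -0.15 to 0.42 for Inhbb, -0.37 to 0.30 for Fst, -0.30 to 0.11 for Fstl1, -0.32 to 0.0022 for Fstl3, -0.16 to 0.056 for Acvr1b, -0.43 to 0.20 for Acvr2a, -0.23 to 0.0021 for Acvr2b and -0.32 to 1.09 for Tgfbr3.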
